A study of Mus musculus with 6 samples.

Results

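The 34 genes described here encode proteins of the lysosome, the acidic compartment in which cells break down proteins, lipids, glycans and engulfed material. They are 10 proteases, 13 other enzymes and cofactors, 5 subunits or accessory proteins of the proton pump, and a group of 6 that holds 5 membrane proteins and Tfeb, which encodes the transcription factor TFEB. They were taken by gene name from a table of 55222 genes, and all 34 were found there and passed the filter on low values. RNA of mouse liver had been sequenced in 6 libraries that form 3 groups of 2, all of the C57BL/6 background. The AAV-shPhpt1 livers came from mice given carbon tetrachloride (CCl4) and an adeno-associated virus with a short hairpin RNA against Phpt1, which encodes a histidine phosphatase. The AAV-Ctrl livers came from mice given CCl4 and a control virus. The normal livers had neither CCl4 nor virus by their labels, so the effects of both cannot be told apart in a comparison with them. CCl4 is a solvent that hepatocytes convert into a toxic radical, and repeated doses scar the liver. Mice received 12.5 ml/kg of it in olive oil by injection into the abdomen 2 times a week. The intravenous dose of virus followed when CCl4 had run for 1 week, and tissue was collected 48 h after the final CCl4 dose. The labels state 5 mice per virus group and do not say which animals gave the libraries, how long CCl4 was given, or which cells the virus reached.

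Lysosomal hydrolases are made in the endoplasmic reticulum, tagged with mannose 6-phosphate and sorted to the lysosome, where the vacuolar proton pump (V-ATPase) keeps the lumen acid enough for them to work. TFEB and its relatives TFE3 and MITF bind an E-box in the promoters of many of these genes, the CLEAR element, and their entry into the nucleus is held back by the mTORC1 kinase at the lysosomal surface. In the liver, hepatocytes hold many lysosomes, and the resident macrophages (Kupffer cells) and the macrophages of a scar are rich in hydrolases, since they digest dead cells and matrix.

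The promoters are shown first, because the E-box of the CLEAR element was found in some of the genes that rose and in some that did not. A promoter window is 250 bases before to 50 bases after a transcript start, from RefSeq on the build GRCm38.p6, and 29 of the 34 genes had at least 1 window, 37 windows in all. The motif searched was GTCACGTG, read on both strands, so that it appears as GTCACGTG or as CACGTGAC. It holds the shorter E-box CACGTG within it. Both promoters below belong to genes that rose in AAV-Ctrl livers, and the capitals mark the motif. Ctsd (chr7:142387828-142388077, minus strand) had it 245 and 98 bases before the start, and Lgmn (chr12:102439093-102439342, minus strand) had it 51 bases before the start of 1 of its annotated transcripts.
Ctsd: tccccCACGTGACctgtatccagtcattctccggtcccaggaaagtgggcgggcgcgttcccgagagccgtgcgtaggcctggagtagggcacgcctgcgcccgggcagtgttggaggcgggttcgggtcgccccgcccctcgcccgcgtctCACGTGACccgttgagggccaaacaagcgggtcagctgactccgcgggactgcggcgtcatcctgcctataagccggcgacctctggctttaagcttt
Lgmn: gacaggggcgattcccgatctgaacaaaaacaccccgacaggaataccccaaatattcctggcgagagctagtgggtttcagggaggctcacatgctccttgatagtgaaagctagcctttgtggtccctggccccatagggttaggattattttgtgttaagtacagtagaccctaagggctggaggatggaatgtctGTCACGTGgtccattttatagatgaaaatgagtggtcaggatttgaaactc

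The next 5 stretches belong to genes that hold the same motif and did not pass the test in any comparison. They are the calcium channel gene Mcoln1 (chr8:3500429-3500498, plus strand), the membrane protein gene Lamp1 (chr8:13159101-13159160, plus strand), the beta-galactosidase gene Glb1 (chr9:114400998-114401057, plus strand), the membrane protein gene Cln3 (chr7:126583327-126583386, minus strand) and the protease gene Ctsa (chr2:164833733-164833792, plus strand). Capitals again mark the motif. In Cln3 the matches on both strands overlap and form the 10-base palindrome of the full CLEAR element. Like the Lgmn stretch, those of Cln3 and Ctsa lie inside the GENCODE M21 bounds of their genes, so annotated transcripts also start farther upstream.
Mcoln1: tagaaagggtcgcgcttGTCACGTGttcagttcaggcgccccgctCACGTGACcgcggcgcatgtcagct
Lamp1: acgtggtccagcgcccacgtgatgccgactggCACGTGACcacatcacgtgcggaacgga
Glb1: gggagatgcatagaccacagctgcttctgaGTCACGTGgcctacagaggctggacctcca
Cln3: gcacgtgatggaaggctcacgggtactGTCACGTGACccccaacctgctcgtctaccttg
Ctsa: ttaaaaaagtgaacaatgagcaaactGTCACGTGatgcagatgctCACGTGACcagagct

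GTCACGTG lay in 7 of the 37 windows of lysosomal genes (18.9%), against 2.25% of 32851 windows of all genes and 3.99% of 12468 windows of genes tested. Its core CACGTG lay in 10 (27.0%), against 7.15% of all windows and 9.77% of those of genes tested, adding Atp6v1a, Ctsl and Gaa. The palindrome, in which the motif overlaps its own reverse complement, lay in 1 window, that of Cln3, against 0.326% of all windows and 0.658% of those of genes tested. Of the 7 genes with GTCACGTG, Ctsd and Lgmn rose in AAV-Ctrl against normal livers and Cln3, Ctsa, Lamp1, Glb1 and Mcoln1 did not pass. Of the genes with only the core, Atp6v1a and Ctsl rose and Gaa did not pass. For comparison, 41.2% of the 34 genes and 18.2% of all genes tested rose. No window was available for Ctsb, Asah1 and Atp6v1b2, which rose, or for Atp6v0d2 and Ctsh, which did not pass. A second motif, GAGGAAGT, has the letters bound by the myeloid factor PU.1 and was also read on both strands. It lay in 2 windows, those of Ctsc and Gusb (5.41%), against 3.2% of all windows and 3.12% of those of genes tested. It is shown in capitals in Ctsc (chr7:88277905-88277964, plus strand), a gene that rose. A match of letters is not a bound site, and a window without one says nothing about the factor.
Ctsc: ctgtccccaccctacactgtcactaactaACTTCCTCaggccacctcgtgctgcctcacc

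**Figure D1:**
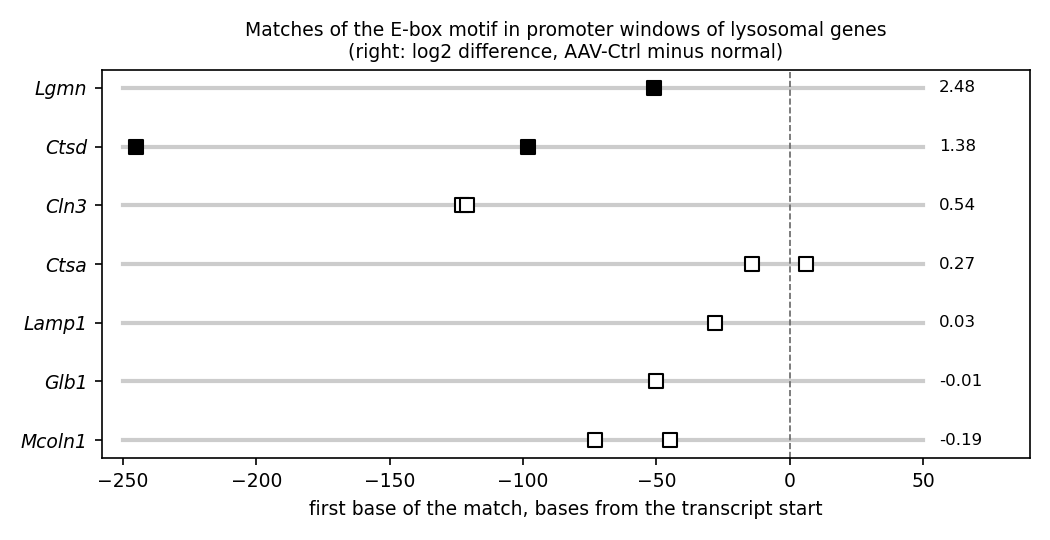
Positions of the motif GTCACGTG on either strand (squares) in the promoter windows of 7 lysosomal genes, in bases from the transcript start (dashed line), with the log2 difference of AAV-Ctrl minus normal livers at the right. Filled squares mark Lgmn and Ctsd, which passed the test (adjusted p under 0.05). Open squares mark the 5 genes that did not, and their differences run between -0.19 and 0.54.

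The values in the deposited table are read as FPKM, fragments scaled to transcript length and library total, so levels can be compared between genes. The reads they imply come to 21488841 to 24188029 per library, and a lysosomal gene had between 3 and 26620 of them in a library, with under 500 in some library for 7 genes. Phpt1 itself (ENSMUSG00000036504, chr2:25573430-25575224, minus strand) had 0.213 and 0.259 FPKM in AAV-shPhpt1 livers, 0.227 and 0.0521 in AAV-Ctrl livers, and 0.234 and 0.210 in normal livers. That is 1 to 5 reads per library, so whether the hairpin lowered its target was not detectable at this depth. A principal component analysis put 64.1% of the variance on its leading axis, where the AAV-shPhpt1 libraries scored 40.1 and -2.26, the AAV-Ctrl libraries 32.75 and 45.58, and the normal libraries -59.06 and -57.11. AAV-shPhpt1 replicate 2 therefore stood apart from the other CCl4 livers, and results that rest on it are given with and without it. Nothing in the labels says that libraries of a group come from separate animals, so p values measure the spread between these samples.

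AAV-Ctrl livers were compared with normal livers first, which shows the lysosomal genes in the injured liver that carries the control virus. Of the 34 genes, 14 rose and 0 fell (41.2% and 0.0%), against 18.2% risen and 2.28% fallen of the 13517 genes tested (limma, Benjamini-Hochberg adjusted p under 0.05). The risen genes were Lgmn, Ctsc, Ctsd, Ctsb and Ctsl among the proteases, Psap, Grn, Asah1, Lipa and Npc2 among the other enzymes and cofactors, Laptm5 among the membrane proteins, and Atp6v1b2, Atp6v1a and Atp6ap1 of the proton pump. Their ratios of group means ran from 1.44-fold for Atp6ap1 to 6.23-fold for Laptm5. The structural membrane proteins, the calcium channel gene and Tfeb did not pass, with differences between -0.19 and 0.13 on the log2 scale for Mcoln1, Lamp1, Lamp2 and Tfeb. After median centring Lamp1, Lamp2 and Tfeb had -0.43, -0.35 and -0.33. The median difference over the 34 genes was 0.76 on the log2(FPKM + 1) scale, against 0.35 over all genes tested. Since that scale put the median gene 0.35 above 0, changes relative to it are smaller: 22 of the 34 genes lay above the median gene and 12 below it. Both AAV-Ctrl libraries lay above both normal ones in 26 of the 34, against 60.0% of all genes, and below in 1, against 12.5%. At an unadjusted p under 0.05, 22 of the 34 were higher, against 36.2% of all genes. After each library was centred on its median, only Atp6v1b2 and Lgmn were still called, 5.88% of the 34 against 4.19% risen of all genes. The share of lysosomal genes was then near that of all genes. With quantile normalization 6 of the 34 were called higher (17.6%), against 4.68% of all genes. With any 1 of the 2 AAV-Ctrl or 2 normal libraries left out, a group holds a single library. Calls were then lost in the lysosomal genes and in nearly all other genes alike.

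**Figure D2:**
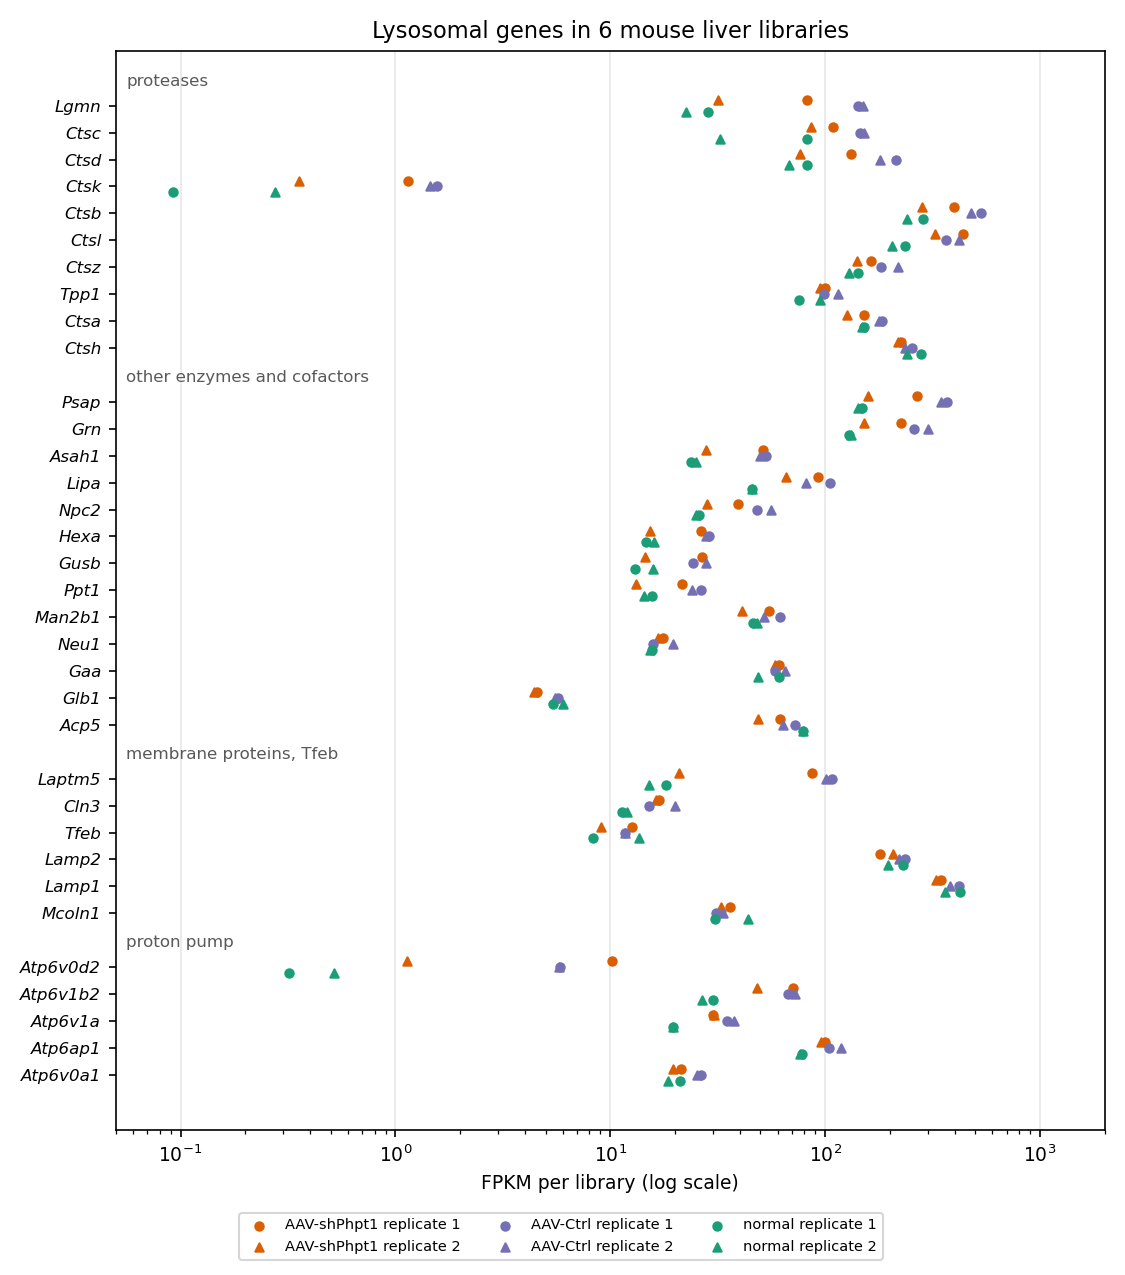
FPKM of the 34 lysosomal genes in each of the 6 libraries on a log axis, grouped by role, with circles for replicate 1 and triangles for replicate 2. The 2 AAV-Ctrl libraries lie within 1.5-fold of each other for every gene, and for Atp6v0d2, Laptm5 and Lgmn the AAV-shPhpt1 libraries lie far apart, at 10.2 and 1.14, 86.6 and 20.8, and 82.7 and 31.7 FPKM.

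Among the proteases, 5 of 10 rose, with a median difference of 0.88. The asparagine-specific endopeptidase legumain, which also matures cathepsins, is encoded by Lgmn (ENSMUSG00000021190, chr12:102394084-102439813, minus strand). Lgmn had 82.7 and 31.7 FPKM in AAV-shPhpt1 livers, 143 and 149 in AAV-Ctrl livers, and 28.4 and 22.6 in normal livers. Both AAV-Ctrl libraries lay far above both normal ones, and AAV-shPhpt1 replicate 2 was close to the normal range. The rise in AAV-Ctrl over normal livers was 5.73-fold, 2.48 on the log2 scale (SE 0.41, limma adjusted p = 0.0205), and it was kept after median centring. Ctsd (ENSMUSG00000007891, chr7:142375911-142388038, minus strand) encodes the aspartic protease cathepsin D and had 132 and 76.4 FPKM in AAV-shPhpt1, 214 and 179.9 in AAV-Ctrl, and 82.4 and 67.9 in normal livers. It was 2.62-fold higher in AAV-Ctrl than in normal livers (adjusted p = 0.0263), with all AAV-Ctrl values above all others.

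Ctsc (ENSMUSG00000030560, chr7:88278085-88310888, plus strand) encodes cathepsin C, a dipeptidyl peptidase that activates the serine proteases of immune cell granules. It had 109 and 85.8 FPKM in AAV-shPhpt1, 145 and 152 in AAV-Ctrl, and 82.6 and 32.5 in normal livers. The normal libraries lay far apart from each other, and the rise of 2.57-fold in AAV-Ctrl over normal livers passed narrowly (adjusted p = 0.0478). The call was lost with any single library left out, and kept with only the 4 AAV-Ctrl and normal libraries in the fit. The cysteine cathepsin genes Ctsb and Ctsl, among the most abundant lysosomal transcripts in these livers, rose 1.91-fold and 1.78-fold, with means of 502 ± 38.9 and 392 ± 39.9 FPKM in AAV-Ctrl livers against 263 ± 32.1 and 220 ± 21.1 FPKM in normal livers (SD, n = 2 each). Ctsk (ENSMUSG00000028111, chr3:95499256-95509362, plus strand), the collagen-cutting protease best known from osteoclasts, stayed low, with 1.15 and 0.355 FPKM in AAV-shPhpt1, 1.55 and 1.46 in AAV-Ctrl, and 0.0923 and 0.276 in normal livers. Its ratio was 8.17-fold, and on the log2(FPKM + 1) scale, which understates changes of low genes, its difference was 1.09 and did not pass (adjusted p = 0.0531). Ctsz, Tpp1, Ctsa and Ctsh, which cut mostly from the ends of proteins, had differences of 0.55, 0.33, 0.27 and -0.08 and did not pass.

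Of the 13 other enzymes and cofactors, 5 rose (38.5%, against 18.2% of all genes), with a median difference of 0.82 against 0.35. None of the 13 was still called after median centring, and Psap and Grn were with quantile normalization. Prosaposin, encoded by Psap (ENSMUSG00000004207, chr10:60277627-60302597, plus strand), is cut into the saposins that present sphingolipids to their hydrolases. Psap had 267 and 158 FPKM in AAV-shPhpt1, 368 and 345 in AAV-Ctrl, and 148 and 142 in normal livers, which puts both AAV-Ctrl libraries above all others. It rose 2.46-fold in AAV-Ctrl over normal livers (adjusted p = 0.025). Grn (ENSMUSG00000034708, chr11:102430315-102437048, plus strand) encodes progranulin, a partner of prosaposin, and had 224 and 152 FPKM in AAV-shPhpt1, 260 and 301 in AAV-Ctrl, and 128 and 132 in normal livers. It rose 2.15-fold in AAV-Ctrl over normal livers (adjusted p = 0.025), and the normal libraries differed little from each other.

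The lipid-handling genes Asah1, Lipa and Npc2 rose by similar amounts. Asah1 (ENSMUSG00000031591, chr8:41340197-41374773, minus strand), acid ceramidase, had 51.6 and 27.8 FPKM in AAV-shPhpt1, 53.2 and 49.996 in AAV-Ctrl, and 23.9 and 25.1 in normal livers, a 2.11-fold rise in AAV-Ctrl over normal livers (adjusted p = 0.045). Lipa (ENSMUSG00000024781, chr19:34492318-34527474, minus strand), the acid lipase of cholesteryl esters and triglycerides, had 92.6 and 65.9 FPKM in AAV-shPhpt1, 106 and 81.1 in AAV-Ctrl, and 45.7 and 45.5 in normal livers, a 2.05-fold rise (adjusted p = 0.0281). Npc2 (ENSMUSG00000021242, chr12:84754562-84773152, minus strand), which carries cholesterol inside the lysosome, had 39.2 and 28.1 FPKM in AAV-shPhpt1, 48.2 and 55.9 in AAV-Ctrl, and 25.97 and 25.04 in normal livers, a 2.04-fold rise (adjusted p = 0.0244). In each of the 3, no AAV-Ctrl value overlapped a normal one, and both AAV-shPhpt1 libraries lay above both normal ones.

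The glycan-cleaving enzymes were more mixed. Hexa, the alpha subunit of beta-hexosaminidase, and Gusb, beta-glucuronidase, had ratios of 1.86-fold and 1.81-fold in AAV-Ctrl over normal livers without passing (adjusted p = 0.0565 and 0.0822), and Ppt1, which removes palmitate from proteins, had 1.68-fold (adjusted p = 0.0736). Man2b1, Neu1, Gaa and Glb1, which cut mannose, sialic acid, glycogen and galactose, had differences of 0.26, 0.18, 0.17 and -0.01 on the log2 scale, none of them past the threshold. Acp5, the tartrate-resistant acid phosphatase, was the only lysosomal gene whose AAV-Ctrl libraries both lay below both normal ones, at 72.2 and 63.9 FPKM against 78.5 and 78.9 FPKM, and it did not pass (adjusted p = 0.338). Acp5, Ctsk and Atp6v0d2 are all abundant in osteoclasts, and here their values went different ways. Of 7 osteoclast and multinucleated macrophage markers, 3 (Dcstamp, Calcr and Oscar) stayed under 1 FPKM in all 6 libraries and none of the 4 tested passed in any comparison.

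Among the membrane proteins and Tfeb, 1 of 6 rose (16.7%, near the 18.2% of all genes), with a median difference of 0.11. Laptm5 (ENSMUSG00000028581, chr4:130913125-130936141, plus strand) encodes a lysosomal membrane protein of blood-derived cells and had 86.6 and 20.8 FPKM in AAV-shPhpt1, 107 and 100.4 in AAV-Ctrl, and 18.2 and 15.1 in normal livers. Its rise of 6.23-fold in AAV-Ctrl over normal livers was 2.57 on the log2 scale (SE 0.59, adjusted p = 0.0335). The AAV-shPhpt1 libraries were split, replicate 1 beside the AAV-Ctrl livers and replicate 2 beside the normal ones. Lamp1 (ENSMUSG00000031447, chr8:13159161-13175338, plus strand), a main glycoprotein of the lysosomal membrane in most cell types, had 345 and 327 FPKM in AAV-shPhpt1, 418 and 381 in AAV-Ctrl, and 426 and 360.1 in normal livers. The difference of AAV-Ctrl from normal livers was 0.03, with a 95% interval of -0.34 to 0.39, and the groups overlapped. Lamp2, its close relative, had 0.10 and also did not pass.

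Mcoln1 (ENSMUSG00000004567, chr8:3500457-3515232, plus strand), which encodes the lysosomal calcium channel TRPML1 and is a known TFEB target, had 35.95 and 32.7 FPKM in AAV-shPhpt1, 30.9 and 33.4 in AAV-Ctrl, and 30.8 and 43.6 in normal livers. Tfeb (ENSMUSG00000023990, chr17:47737030-47792419, plus strand) had 12.6 and 9.03 FPKM in AAV-shPhpt1, 11.7 and 11.7 in AAV-Ctrl, and 8.28 and 13.6 in normal livers. For both genes the normal libraries spanned the AAV-Ctrl values. The difference of AAV-Ctrl from normal livers was -0.19 for Mcoln1 and 0.13 for Tfeb, the last with a 95% interval of -0.51 to 0.76, which does not show that the levels were equal. RNA levels also do not measure TFEB activity, which is set by where the protein is in the cell. Cln3, a membrane protein lost in a childhood storage disease, was 1.503-fold higher in AAV-Ctrl than in normal livers without passing (adjusted p = 0.0657).

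Of the 5 proton pump genes, 3 rose (60.0%, against 18.2% of all genes), with a median difference of 0.85 against 0.35. After median centring only Atp6v1b2 of these was still called. Atp6v1b2 (ENSMUSG00000006273, chr8:69088646-69113711, plus strand) encodes the B2 subunit of the part of the pump that splits ATP and had 71.1 and 48.2 FPKM in AAV-shPhpt1, 67.2 and 72.0 in AAV-Ctrl, and 30.1 and 26.7 in normal livers. All CCl4 libraries lay above both normal ones. Its rise of 2.45-fold in AAV-Ctrl over normal livers (1.27 on the log2 scale, SE 0.20, adjusted p = 0.0187) was kept after median centring. Atp6v1a, its catalytic partner subunit, rose 1.84-fold (adjusted p = 0.016) and Atp6ap1, an accessory protein of assembly, 1.44-fold (adjusted p = 0.0379). Atp6v0a1, a subunit of the proton channel, had 0.37 and did not pass. Atp6v0d2 (ENSMUSG00000028238, chr4:19876841-19922605, minus strand), the d2 isoform found in macrophages and osteoclasts, had 10.2 and 1.14 FPKM in AAV-shPhpt1, 5.83 and 5.76 in AAV-Ctrl, and 0.319 and 0.516 in normal livers. The ratio of AAV-Ctrl to normal was 13.9-fold, the highest of the 34, yet the test did not call it (2.26 on the log2 scale, SE 0.71, adjusted p = 0.065). The spread between its AAV-shPhpt1 libraries enters the shared error of the test, and with only the 4 libraries compared it was among the 20 genes called.

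**Figure D3:**
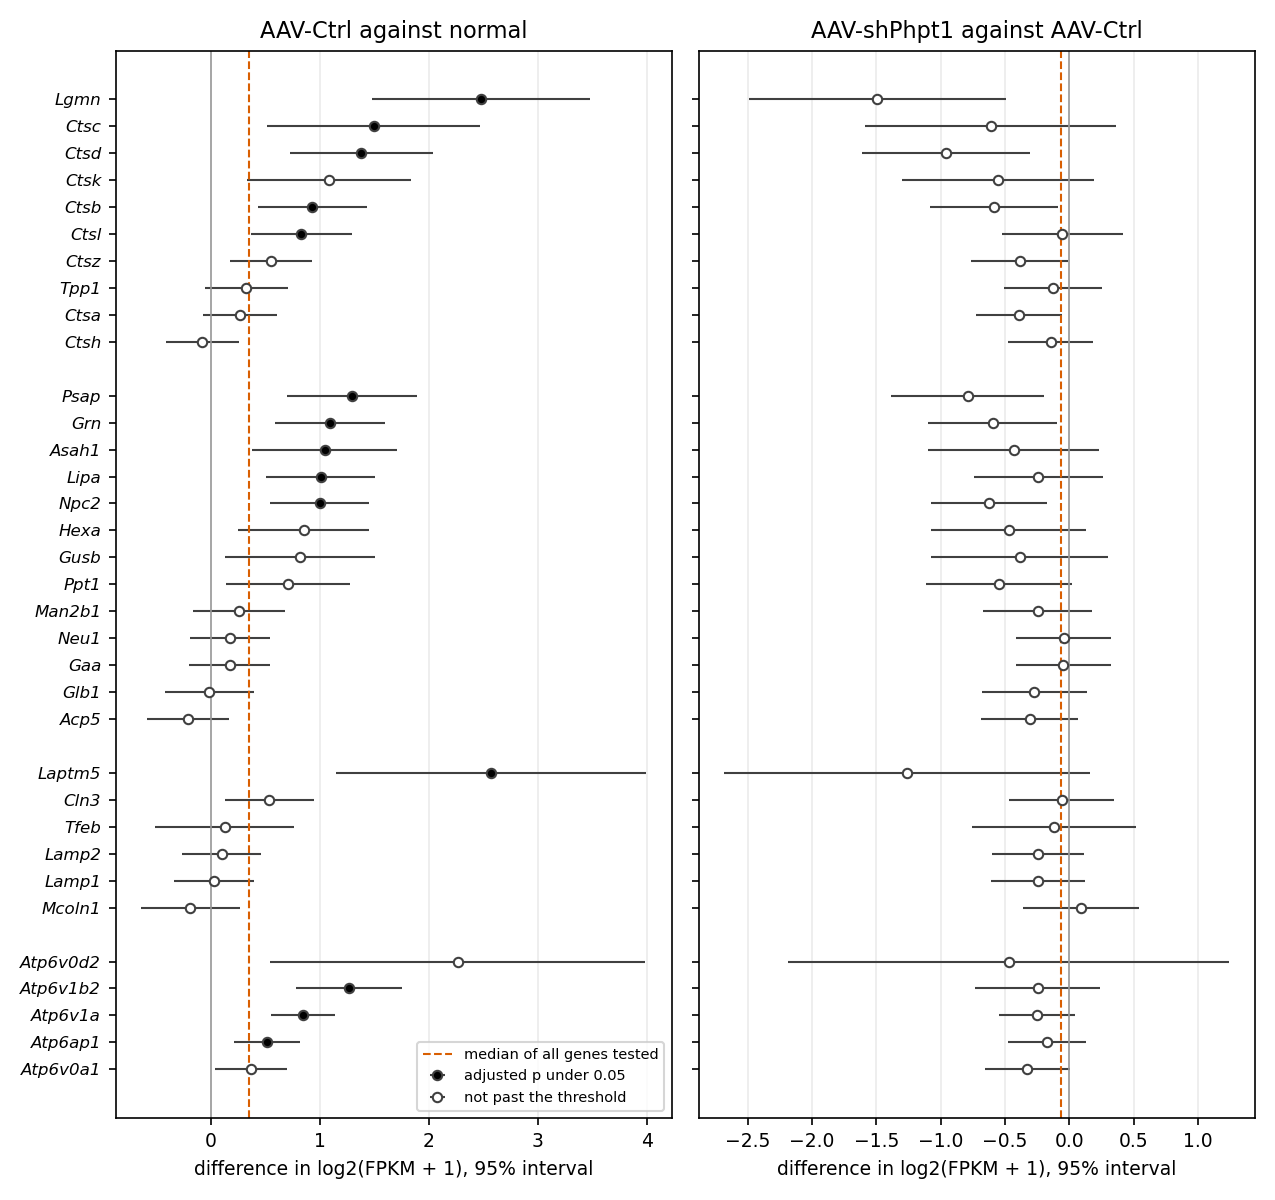
Differences in log2(FPKM + 1) with 95% intervals from limma for the 34 lysosomal genes, AAV-Ctrl minus normal livers at the left and AAV-shPhpt1 minus AAV-Ctrl livers at the right. Filled points passed an adjusted p of 0.05 (14 at the left, 0 at the right), and the dashed line is the median of all genes tested, 0.35 at the left and -0.07 at the right.

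Markers of other cell types moved with these genes, and in bulk liver fewer cells of a type and less RNA per cell cannot be told apart. The summed FPKM of 15 macrophage markers was 647 and 222 in AAV-shPhpt1, 1111 and 1062 in AAV-Ctrl, and 190 and 127 in normal livers, and 9 of the 15 rose in AAV-Ctrl over normal livers with a median difference of 2.51. The 8 Kupffer cell markers summed to 469 and 157 in AAV-shPhpt1, 790 and 558 in AAV-Ctrl, and 174 and 177 in normal livers, with 2 of 8 risen (25%, against 18.2% of all genes). The 7 markers of scar-associated macrophages summed to 247 and 147 in AAV-shPhpt1, 217 and 310.0 in AAV-Ctrl, and 46.2 and 50.4 in normal livers, with 6 of 7 risen. The 8 markers of stellate cells and myofibroblasts summed to 187 and 52.3 in AAV-shPhpt1, 392 and 342 in AAV-Ctrl, and 40.4 and 51.9 in normal livers, with 6 of 8 risen and a median difference of 2.27. Of 7 sinusoidal endothelial markers 3 rose, with a median of 1.35. No marker of these 5 lists was at 0 in both libraries of a group. The 10 hepatocyte markers summed to 150372 and 103413 in AAV-shPhpt1, 88014 and 87902 in AAV-Ctrl, and 99004 and 104576 in normal livers, so the labelled tissue is borne out by its markers in all 6 libraries. The part of macrophages, stellate cells or endothelium in the rise of the lysosomal genes was not tested.

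**Figure D4:**
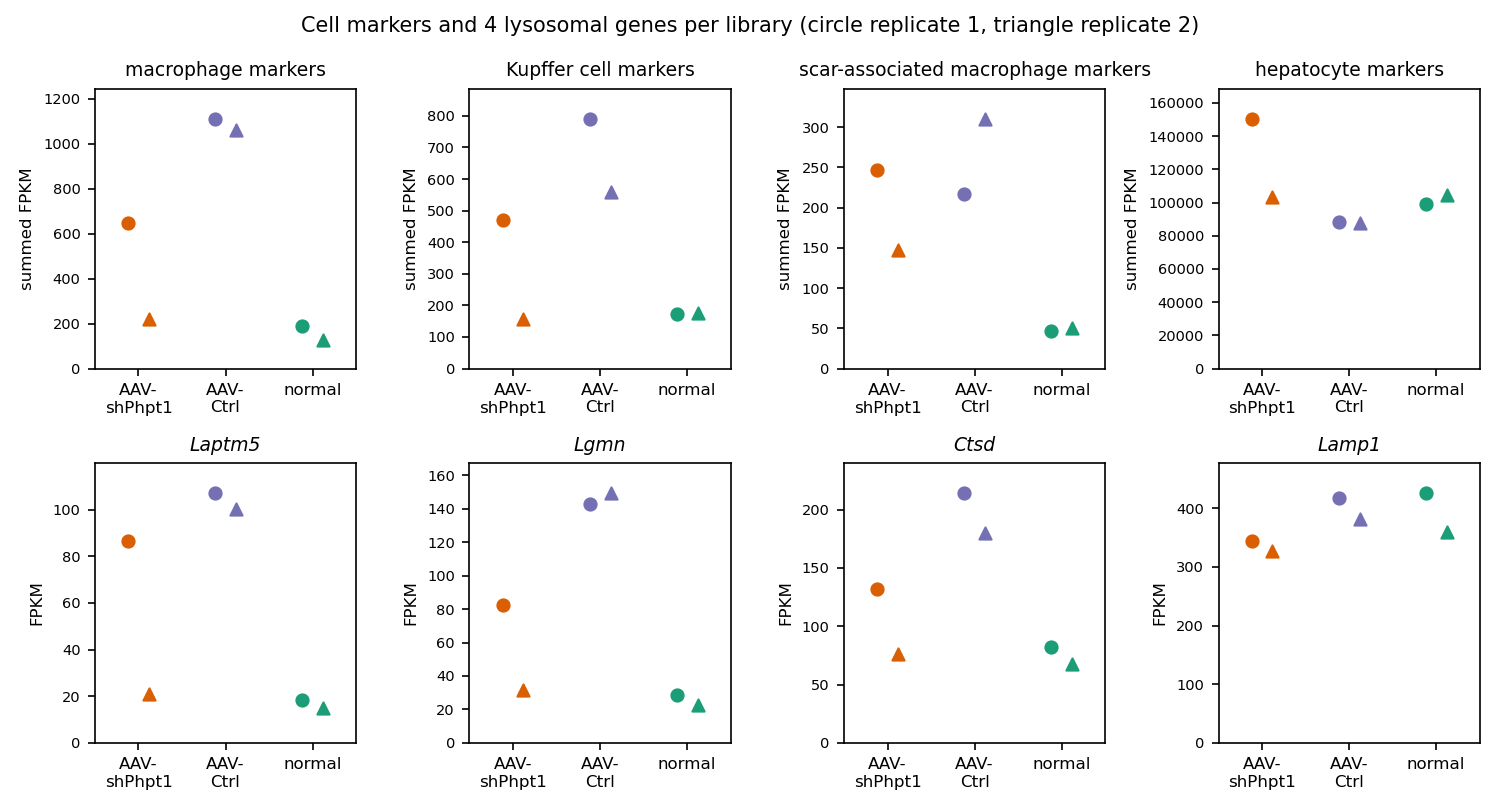
Summed FPKM of macrophage, Kupffer cell, scar-associated macrophage and hepatocyte markers (top) and FPKM of Laptm5, Lgmn, Ctsd and Lamp1 (bottom) per library, with circles for replicate 1 and triangles for replicate 2. Macrophage markers and Laptm5 are both lower in AAV-shPhpt1 replicate 2 (222 summed, and 20.8) than in replicate 1 (647 summed, and 86.6), and Lamp1 is at 345 and 327 FPKM in the same libraries.

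Other lysosomal genes, beyond the 34, moved in the same direction where they passed. Of 29 other hydrolases and activators, 7 rose in AAV-Ctrl over normal livers and 0 fell, with a median of 0.41. The macrophage cysteine protease gene Ctss had 67.1 and 15.0 FPKM in AAV-shPhpt1, 135 and 141 in AAV-Ctrl, and 15.7 and 11.4 in normal livers, a 10.2-fold rise in AAV-Ctrl over normal livers. The alpha-galactosidase gene Gla rose 2.62-fold, the carboxypeptidase gene Scpep1 1.93-fold and the sulfatase gene Galns 1.83-fold. Of 19 other membrane proteins tested, 3 rose: Cd63, a tetraspanin of lysosomes and exosomes, 28.0-fold, the amino acid exporter gene Slc36a1 1.90-fold, and Ostm1, a partner of a chloride channel, 1.76-fold. Of 14 other V-ATPase subunits tested, 5 rose, among them Tcirg1, the a3 subunit of osteoclasts and macrophages, 1.99-fold, Atp6v0c 1.72-fold, Atp6ap2 1.64-fold and Atp6v0e 1.58-fold. Over these 3 lists, 15 of 62 genes tested rose (24.2%), against 41.2% of the 34 and 18.2% of all genes tested. By list the share was 24.1% for the hydrolases and activators, 15.8% for the membrane proteins and 35.7% for the V-ATPase subunits. Their medians were 0.41, 0.19 and 0.30, and 0.30 over the 3 lists together, against 0.35 of all genes. Whether these shares differ was not tested.

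Lists around the lysosome were counted in AAV-Ctrl over normal livers against the 18.2% risen and 2.28% fallen of all genes tested. Of 15 factors of the TFEB family and of mTORC1 anchoring that were tested, 3 rose (20%): Mitf 3.36-fold, Tfe3 1.86-fold and Lamtor3, a subunit of the lysosomal Ragulator complex, 1.57-fold. Mitf stayed low, with 4.53 and 2.81 FPKM in AAV-shPhpt1, 4.41 and 6.69 in AAV-Ctrl, and 1.68 and 1.62 in normal livers. Of 9 genes that sort hydrolases, the 2 mannose 6-phosphate receptor genes M6pr and Igf2r rose (22.2%), 1.72-fold and 1.67-fold. Both shares are near that of all genes. Of 7 cystatins, the natural inhibitors of cysteine cathepsins, 2 were expressed above the filter and Cstb rose 3.65-fold, with 103 and 85.2 FPKM in AAV-shPhpt1, 90.2 and 153 in AAV-Ctrl, and 35.8 and 30.8 in normal livers. Of 14 autophagy genes, the cargo receptor gene Sqstm1 rose 1.66-fold (7.14%). Gabarapl1, which coats autophagosomes, and Ulk1, the starting kinase, fell 2.39-fold and 1.89-fold (14.3%, against 2.28% fallen of all genes). The autophagy list had a median of -0.14, below the 0.35 of all genes.

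The hairpin was then set against the control virus, both in mice given CCl4. No gene of the 13517 passed the test (limma, 0.0% higher and 0.0% lower, with 1146 genes or 8.48% at an unadjusted p under 0.05), and so none of the 34 lysosomal genes passed. Of these, 8 had an unadjusted p under 0.05, all with lower values in AAV-shPhpt1 livers: Lgmn, Ctsd, Ctsb, Ctsa, Ctsz, Psap, Grn and Npc2, of which the first 5 are proteases. Over all genes tested, 6.92% were lower at that level. The difference was below 0 for 33 of the 34 genes, with Mcoln1 at 0.09 the exception, against 61.1% of all genes. After median centring or quantile normalization Neu1, Ctsl, Gaa and Cln3 lay above 0 as well. In 21 of the 34 both AAV-shPhpt1 libraries lay below both AAV-Ctrl libraries, against 26.2% of all genes, and in 0 of the 34 both lay above, against 11.8%. The median difference was -0.32 for the 34 genes and -0.07 for all genes tested, and 29 of the 34 lay below the median gene.

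The largest differences belonged to genes already described. For Lgmn, AAV-shPhpt1 livers averaged 57.2 ± 36.1 FPKM and AAV-Ctrl livers 146 ± 4.68 FPKM (SD, n = 2 each), a log2 difference of -1.49 (SE 0.41, 95% interval -2.49 to -0.49, adjusted p = 0.49). For Laptm5, AAV-shPhpt1 livers averaged 53.7 ± 46.5 FPKM and AAV-Ctrl livers 104 ± 4.70 FPKM, a difference of -1.26 (SE 0.59, adjusted p = 0.624). In both genes the SD in AAV-shPhpt1 livers was several times that in AAV-Ctrl livers. Ctsd followed with -0.96 (adjusted p = 0.491), Psap with -0.79 (adjusted p = 0.512), Npc2 with -0.63 (adjusted p = 0.507) and Ctsc with -0.61 (adjusted p = 0.747). In these 6 genes no AAV-shPhpt1 value reached an AAV-Ctrl value.

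Other genes gave smaller differences. The protease genes Ctsb, Ctsk, Ctsa, Ctsz, Ctsh, Tpp1 and Ctsl ran between -0.58 and -0.05, with Ctsb at the low end and Ctsl at the high end. Grn had -0.60, Ppt1 -0.55, Hexa -0.47, Asah1 -0.43, Gusb -0.39 and Acp5 -0.31, and the other enzymes and cofactors lay between -0.27 for Glb1 and -0.04 for Neu1. Lamp1 and Lamp2 had -0.25 and -0.24, and their AAV-shPhpt1 libraries lay below both AAV-Ctrl libraries. Tfeb had -0.12, with a 95% interval of -0.75 to 0.51, and Cln3 -0.06. The proton pump genes ran from -0.47 for Atp6v0d2 to -0.18 for Atp6ap1. The median was -0.47 for the proteases, -0.39 for the other enzymes and cofactors, -0.18 for the membrane proteins with Tfeb, and -0.25 for the proton pump.

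Between the AAV-shPhpt1 libraries, most of the 34 genes differed in 1 direction. Replicate 1 was above replicate 2 in 32 of the 34, with Lamp2 and Atp6v1a the exceptions, against 60.5% of all genes tested. It was more than 1.5 times replicate 2 in 10 of the 34, against 22.3% of all genes. The ratio was 9.02 for Atp6v0d2, 4.17 for Laptm5, 3.23 for Ctsk and 2.61 for Lgmn, and its median was 1.34 over the 34 genes and 1.07 over all genes tested. The 34 genes summed to 3658 and 2830 FPKM in AAV-shPhpt1, 4301 and 4268 in AAV-Ctrl, and 2858 and 2577 in normal livers. Replicate 1 thus lay between the AAV-Ctrl and normal livers, and replicate 2 within the normal range. Relative to the mean of the normal livers, the median gene of the 34 stood at 1.48 and 1.07 in AAV-shPhpt1 and at 1.67 and 1.74 in AAV-Ctrl livers.

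The comparison with the control virus changed with the AAV-shPhpt1 library left out. Without AAV-shPhpt1 replicate 1, which leaves replicate 2 alone and assumes that it varies like the other groups, 5 of the 34 genes were called lower (Lgmn, Laptm5, Ctsd, Psap and Atp6v0d2), 14.7% against 2.52% of all genes. Without replicate 2, none of the 34 was called lower, against 0.0146% of all genes, and the median over the 34 genes was -0.18. The difference of Lgmn was then -0.81, and that of Atp6v0d2 was 0.72, the opposite sign. The macrophage marker sum was 222 in AAV-shPhpt1 replicate 2 and 647 in replicate 1, against 1111 and 1062 in AAV-Ctrl livers. Stellate cell and myofibroblast markers summed to 187 and 52.3 in AAV-shPhpt1 and to 392 and 342 in AAV-Ctrl livers. These lists were not alone, since every marker list except that of cholangiocytes was lower in AAV-shPhpt1 replicate 2 than in replicate 1. Hepatocyte markers were among them, at 103413 in replicate 2 and 150372 in replicate 1. In the neutrophil, T and B cell, osteoclast and hepatocyte lists replicate 1 lay above both AAV-Ctrl libraries. The part of any of these cells in the lower lysosomal values was not tested.

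None of the other lysosomal lists had a called gene in AAV-shPhpt1 against AAV-Ctrl livers, since no gene was called at all. At an unadjusted p under 0.05 (limma), 5 of 29 other hydrolases and activators were lower, against 6.92% of all genes. So were 2 of 19 other membrane proteins and 2 of 14 other V-ATPase subunits, 9 of 62 over the 3 lists, with 0 higher. In the TFEB family and mTORC1 list 1 of 15 was higher, and in autophagy 2 of 14. The median was -0.17 for the other hydrolases and activators. It was -0.05 for the other membrane proteins, -0.06 for the other V-ATPase subunits, -0.01 for the TFEB family and mTORC1 anchoring, -0.12 for sorting and -0.04 for autophagy, close to the -0.07 of all genes. The 2 cystatins tested had -0.47 for Cst3 (adjusted p = 0.527) and -0.32 for Cstb (adjusted p = 0.813), a median of -0.40. Ctss had a difference of -2.07 (adjusted p = 0.51). The autophagy genes Ulk1 and Gabarapl1 had 0.98 and 0.66 and did not pass (adjusted p = 0.434 and 0.49).

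AAV-shPhpt1 livers were also set against normal livers. This comparison shares its AAV-shPhpt1 libraries with the comparison to the control virus and its normal libraries with that of AAV-Ctrl to normal, so the 3 are not independent. Of the 34 genes 1 rose and 0 fell (2.94% and 0.0%), against 3.26% risen and 1.07% fallen of all genes tested. The risen gene was Atp6v1b2, with 59.6 ± 16.2 FPKM in AAV-shPhpt1 livers against 28.4 ± 2.42 FPKM in normal livers (SD, n = 2 each), 2.10-fold (limma adjusted p = 0.0484). The call was kept with a pseudocount of 0.1, with a filter at 5 FPKM and without AAV-shPhpt1 replicate 2, and it was lost under every other alternative tried. The median difference was 0.36 for the 34 genes and 0.30 for all genes tested, so the lysosomal genes lay close to the median gene, 19 above it and 15 below.

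Both AAV-shPhpt1 libraries lay above both normal ones in 17 of the 34 genes, against 52.2% of all genes, and below in 4 (Ctsh, Lamp1, Glb1 and Acp5), against 12.5%. Acp5 had the lowest difference, -0.52 (adjusted p = 0.0955). Atp6v0d2 had 13.6-fold, Ctsk 4.08-fold, Laptm5 3.22-fold and Lgmn 2.24-fold higher means in AAV-shPhpt1 than in normal livers, none past the threshold, with adjusted p between 0.149 and 0.267 from limma. Without AAV-shPhpt1 replicate 2, 11 of the 34 (32.4%) were called higher than in normal livers, Atp6v0d2, Laptm5 and Lgmn among them, against 14.3% of all genes. Without replicate 1 none of the 34 was, against 0.305% of all genes. Of the 62 genes tested in the 3 other lysosomal lists, Cd63 and the V-ATPase subunit gene Atp6v1g1 were called in AAV-shPhpt1 over normal livers, at 17.7-fold and 1.73-fold. That is 3.23%, near the 3.26% risen of all genes tested. Of the 2 cystatins tested, Cstb was called, at 2.83-fold.

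The 34 genes also differed in how many fragments carry their values and in what lies beside them. Reads of a gene and of another gene that overlaps its exons cannot be told apart where strand was not used in counting, which the sources do not state. In the GENCODE M21 annotation of GRCm38, 12 of the 34 genes share exonic bases with another gene. The share was 34.4% for Ctsd and 26.8% for Ctsl, in both cases with a gene listed at 0 in all libraries. It was 12.8% for Ctsb with Fdft1, 10.5% for Ctsa with Pltp, 9.31% for Lamp1 with Grtp1, 7.65% for Cln3 with Apobr and 3.51% for Ppt1 with Cap1, partners with up to 113 FPKM. The values of these genes are uncertain by that overlap. Between AAV-Ctrl replicates none of the 34 genes was more than 1.5-fold apart, and between normal replicates 4 were.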

How the data were processed

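Total RNA of mouse liver was made into 6 libraries with a TruSeq kit, per the labels' protocols. The builds mm8 and mm9 and the aligner Bowtie 0.12.2 are named in the submitters' processing notes without roles. For the counter and annotation, the sources used here give no name. The authors deposited 1 table of 55222 genes whose header names no unit. The deposited values were read as FPKM, because a value times the mean transcript length in GENCODE M21 was a whole multiple of 1 step per library, within 0.05 reads, for 95.8% to 96.3% of values under 200 reads. These steps gave the reads per library, and counting error only is covered by them.

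The filter kept 13517 genes whose mean reached 1 FPKM in any group. Their log2(FPKM + 1) values were fitted in R 4.3.3 by the trend method of limma 3.58.1, 1 fit over the 6 libraries with 3 residual and 3.21 prior degrees of freedom. The 3 comparisons were two-sided, with Benjamini-Hochberg adjustment over all genes tested and calls at an adjusted p under 0.05. The fit was tested on simulated data, which checked only that known differences were recovered on average. The simulation held no library-wide shift and no outlying library. Folds are ratios of mean FPKM; differences and their errors are on the log2(FPKM + 1) scale. The design allowed for whole counts, and the rule for normalized values applied. The members and lists were chosen with earlier results of these data known. Named genes follow a rule: Phpt1; all 34 members, with values per library for the 12 largest differences of AAV-Ctrl from normal, the 6 largest of AAV-shPhpt1 from AAV-Ctrl, Tfeb, Lamp1, Atp6v0d2 and Mcoln1; and up to 4 called genes with the largest differences of each other list. The other lists cover hydrolases, membrane proteins, V-ATPase subunits, TFEB relatives with mTORC1 anchoring, sorting, cystatins and autophagy, and cell markers. Alternatives were median centring, quantile normalization, a pseudocount of 0.1, no filter, a filter at 5 FPKM, a replicate block, only the 4 libraries compared, and each library left out. Sequences are from RefSeq (GRCm38.p6), gene positions from GENCODE M21 (GRCm38), which matched 54495 of 54532 identifiers.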

Additional observations from a re-analysis of the deposited data

How the results depend on the processing

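Between AAV-Ctrl and normal livers, 14 of the 34 lysosomal genes were called, against 2 with median centring, 6 with quantile normalization, 0 with no filter on low values (limma, 22 of the 34 had an unadjusted p under 0.05 with the filter), and 0 to 18 with 1 library left out. All genes called numbered 2772 (2464 higher and 308 lower), against 1295 with median centring (566 higher and 729 lower), 1092 with quantile normalization (632 higher and 460 lower), 96 with no filter and 6 to 3739 with 1 library left out. Between AAV-shPhpt1 and AAV-Ctrl livers, 0 to 5 of the 34 and 0 to 377 of all genes were called with 1 library left out. Between AAV-shPhpt1 and normal livers, 1 of the 34 was called, against 2 with a pseudocount of 0.1 or a filter at 5 FPKM, 0 with median centring, quantile normalization, no filter, the replicate block or only the 4 libraries compared, and 0 to 11 with 1 library left out. All genes called numbered 586 (441 higher and 145 lower), against 313 with median centring (128 higher and 185 lower), 236 with quantile normalization (114 higher and 122 lower), 4 with no filter, 384 with the replicate block, 202 with only the 4 libraries compared and 9 to 2289 with 1 library left out. The cause of these changes was not tested.

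Replicate numbers were shared between groups, and deviations of same-numbered libraries correlated at 0.153, 0.041 and 0.073. The labels state no pairing, and these correlations do not settle whether the numbers pair the samples. With the replicate block, 13 of the 34 were called in AAV-Ctrl against normal, without Atp6ap1, and 0 in the other comparisons.

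Signs turned only in genes that had not passed. With median centring the difference of AAV-Ctrl from normal was -0.182 for Ctsa, -0.425 for Lamp1, -0.353 for Lamp2, -0.279 for Gaa, -0.192 for Man2b1, -0.275 for Neu1, -0.083 for Atp6v0a1, -0.326 for Tfeb and -0.126 for Tpp1. With quantile normalization it was -0.011 for Gaa, -0.190 for Neu1 and -0.298 for Tfeb. The difference of AAV-shPhpt1 from AAV-Ctrl was 0.048 for Ctsl, 0.055 for Gaa, 0.059 for Neu1 and 0.041 for Cln3 with median centring, and 0.052, 0.044, 0.054 and 0.036 for the same genes with quantile normalization. With 1 library left out, the difference of AAV-Ctrl from normal ran from -0.093 to 0.147 for Lamp1, -0.016 to 0.214 for Lamp2, -0.083 to 0.058 for Glb1, -0.199 to 0.451 for Tfeb, -0.182 to 0.026 for Ctsh and -0.430 to 0.057 for Mcoln1. That of AAV-shPhpt1 from AAV-Ctrl ran from -1.671 to 0.725 for Atp6v0d2, -0.868 to 0.001 for Asah1, -0.807 to 0.035 for Gusb, -0.520 to 0.030 for Atp6v1b2, -0.339 to 0.099 for Tfeb, -0.270 to 0.163 for Ctsl, -0.248 to 0.127 for Cln3, -0.186 to 0.101 for Neu1 and -0.118 to 0.024 for Gaa. Of 973 values of single genes under the alternatives, 804 kept their sign and side of the threshold, 103 fell below it, 28 passed it and 38 turned sign. These values do not hold every gene in AAV-shPhpt1 against normal livers, so turned signs and new calls there are not all counted. None of the 15 called values turned sign. Low reads limit Ctsk and Atp6v0d2 most.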

Other observations

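Markers of further cell types were measured beside the lysosomal genes. Neutrophil markers summed to 62.8 and 11.2 FPKM in AAV-shPhpt1, 22.03 and 30.8 in AAV-Ctrl, and 7.49 and 3.17 in normal livers. T and B cell markers summed to 24.9 and 6.50 in AAV-shPhpt1, 13.2 and 8.94 in AAV-Ctrl, and 5.43 and 5.16 in normal livers. In both lists AAV-shPhpt1 replicate 1 was the highest library. Sinusoidal endothelial markers summed to 64.3 and 24.5 in AAV-shPhpt1, 84.2 and 71.0 in AAV-Ctrl, and 16.6 and 40.3 in normal livers, and cholangiocyte markers to 75.9 and 93.1 in AAV-shPhpt1, 58.6 and 120.1 in AAV-Ctrl, and 20.1 and 25.2 in normal livers. Cholangiocyte markers, unlike the others, were higher in AAV-shPhpt1 replicate 2 than in replicate 1. Spp1 is in both the cholangiocyte list and that of scar-associated macrophages, so their sums share it. Whether these cells take part in the lysosomal values was not tested.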
